A study of Saccharomyces cerevisiae with 6 samples.

Results

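The 43 genes described here encode the core of the yeast secretory pathway: the genes named SEC with a number, apart from SEC53 of sugar nucleotide supply, together with COP1, RET2 and RET3 of the COPI coat, SAR1, SFB2 and SFB3 of the COPII coat, and EXO70 and EXO84 of the exocyst. They were chosen by name in the array annotation, and each was read from its single probe set. They are 43 of the 5449 S. cerevisiae genes that the array measured. The strains compared were the commercial wine strain P5 and P5-EM, an isolate of P5 taken from a mixed culture of wine strains that had been treated with the mutagen ethyl methanesulfonate and then kept growing by serial transfer in SM1 at 12 °C. SM1 is a synthetic grape must in which inositol is scarce. RNA came from 3 independent cultures of each strain, grown in SM1 at 12 °C and sampled once, in the exponential phase of fermentation. P5-EM stands for 1 isolate, with protein-changing mutations in several genes. A homozygous one lies in SEC2, and a heterozygous one in GAA1, for a subunit of the enzyme that attaches glycolipid anchors to proteins in the endoplasmic reticulum (ER).

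Proteins bound for the cell surface enter the ER through the translocon, a channel in the ER membrane. COPII-coated vesicles carry them on to the Golgi, COPI-coated vesicles bring ER residents back, and the exocyst ties Golgi-derived vesicles to the plasma membrane at the growing bud before they fuse. Most SEC genes were found through temperature-sensitive mutants of S. cerevisiae that stop secretion, and the proteins of the yeast cell wall, mannoproteins among them, travel by this route.

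The level of a gene is the log2 of a normalized hybridisation signal, so that a difference of 1 is 2-fold, and it can be compared between arrays but not between genes. All 43 genes were above background on all 6 arrays. Their lowest value was 3.80, while the 95th percentile of 1747 background probe sets was at most 2.60 on any array. These were taken as probe sets for S. pombe genes, which these cells lack. Their annotation names a gene outside the S. cerevisiae gene list or, for 1 of them, several genes. P5-EM replicate 1 stood apart from the other arrays. Over all S. cerevisiae probe sets it correlated with P5-EM replicates 2 and 3 at r = 0.967 and 0.953, where those correlated with each other at 0.990 (Pearson, across genes, which are not independent replicates). Values without it are therefore given beside the main results. In bulk RNA, a lower level in every cell and a lower share of cells with the transcript cannot be told apart, and with 1 sampling time the same holds for strain and stage of fermentation.

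Few secretory genes differed between the strains at 12 °C. SEC11, for the catalytic subunit of signal peptidase, and SEC39, for a part of the tether that catches COPI vesicles at the ER, were higher in P5-EM. SFB2, for a cargo adaptor of the COPII coat, was lower. These changes were of 1.48-, 1.47- and 1.43-fold, and no member changed 2-fold. Of the 43 genes, 2 were higher, 1 was lower and 40 did not pass, where passing means an adjusted p no higher than 0.05 (limma, Benjamini-Hochberg over all 5498 S. cerevisiae probe sets). That is 6.98% of the members, where 13.9% of all probe sets were called, 6.09% higher and 7.78% lower. At 2-fold or more, 0 members and 3.93% of all probe sets were called. By the methods' t-test, adjusted over all probe sets, 0 members were called, and 9 had an unadjusted p under 0.05, as 9 had by limma. Without P5-EM replicate 1, 3 members were higher and 2 lower (26.6% of all probe sets called, 12.2% higher and 14.4% lower), and the 3 members called on all arrays were among these 5. Without P5 replicate 2 or without P5 replicate 3, 0 of all probe sets were called (1318 and 1222 at an unadjusted p under 0.05), so that a call lost there is not particular to a gene.

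In size, whatever the direction, the median log2 fold change of the members was 0.25, beside 0.29 over all probe sets (0.17 and 0.24 without P5-EM replicate 1). Their signed median was -0.06, beside -0.04 over all probe sets, and the values ran from -0.75 for SEC9 to 0.58 for SEC22. Of the 43 values, 28 were negative and 15 positive, beside 2948 negative and 2550 positive over all probe sets. The 95% interval of the fold change (limma, not adjusted for the number of genes) lay within 2-fold in both directions for 35 members, or 81.4%, against 73.4% of all probe sets. The 8 genes with a wider interval were SEC62, SEC13, SEC21, SEC3, SEC8, EXO70, SEC9 and SEC14. Without P5-EM replicate 1 all 43 intervals lay within 2-fold, as did those of 87.4% of all probe sets. The arrays of the strains did not overlap for 16 members, 7 of them higher and 9 lower in P5-EM, which is 37.2% of the members against 45.7% of all probe sets (21.1% higher and 24.6% lower).

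**Figure D1:**
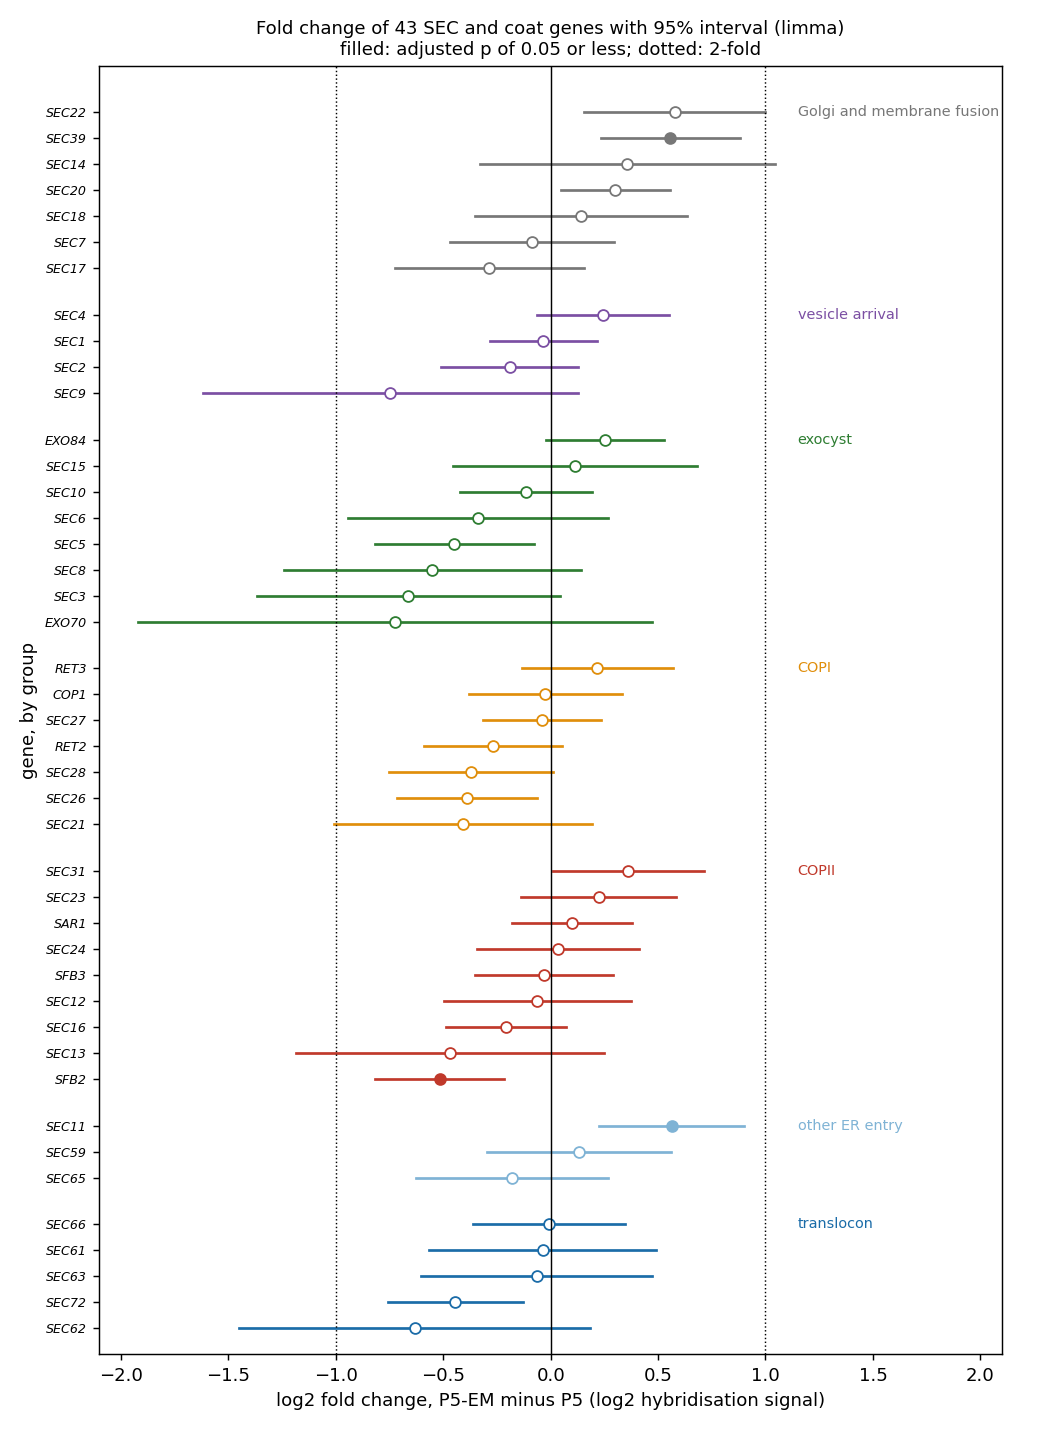
Log2 fold change of each of the 43 genes, P5-EM minus P5 (x axis), with its 95% interval from limma (lines), ordered within the 7 groups of genes; filled points are the genes that passed (adjusted p up to 0.05) and dotted lines mark 2-fold. SEC11, SEC39 and SFB2 are the 3 filled points, and the widest intervals belong to EXO70 and SEC9.

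The first step of secretion is entry into the ER. SEC61 encodes the pore of the translocon, and SEC62, SEC63, SEC66 and SEC72 encode the complex that joins it when a finished protein is passed through after translation. None of these 5 genes passed (median log2 fold change -0.07, 1 gene at an unadjusted p under 0.05 by limma and 1 by the methods' t-test, which called 0 after adjustment). SEC61 itself had levels of 11.01, 10.54 and 10.53 in P5 and of 11.06, 10.48 and 10.41 in P5-EM (log2 fold change -0.04, SE 0.22, adjusted p = 0.918, limma). Its P5-EM values lay on both sides of the P5 values. SEC66 was closest to no difference, at 6.68, 6.31 and 6.20 in P5 and 6.38, 6.43 and 6.35 in P5-EM, with a 95% interval from -0.36 to 0.35. SEC63, the J-domain partner that recruits the chaperone Kar2 to the channel, had a fold change of -0.07.

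SEC62 and SEC72 had the largest differences of the translocon. SEC62 had levels of 7.94, 7.50 and 7.55 in P5 and 6.22, 7.44 and 7.42 in P5-EM (log2 fold change -0.63, SE 0.34, adjusted p = 0.230, limma). The strains did not overlap, but the distance came from P5-EM replicate 1, and without it the fold change was -0.23. SEC72 had levels of 8.38, 8.04 and 8.22 in P5 and 7.89, 7.76 and 7.67 in P5-EM. All P5-EM arrays lay below all P5 arrays, by a fold change of -0.44 (SE 0.13, adjusted p = 0.0695). Without P5-EM replicate 1 it passed, at -0.50 (adjusted p = 0.0256). The median of the translocon became -0.24 without that array, where the median over all probe sets was 0.01, and all 5 values were negative with it and without it. The sign depended on P5 replicate 1, however. Without that P5 array the median was 0.10, and SEC61, SEC63 and SEC66 were positive (0.12, 0.10 and 0.13). SEC62 and SEC72 stayed negative, at -0.49 and -0.36.

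SEC11, SEC65 and SEC59 also act at the ER membrane. SEC11 had levels of 8.79, 8.83 and 8.93 in P5 and rose to 9.61, 9.45 and 9.18 in P5-EM (log2 fold change 0.56, SE 0.14, adjusted p = 0.0457, limma). The P5-EM arrays were all higher than the P5 arrays, and without P5-EM replicate 1 the fold change was 0.46 (adjusted p = 0.0281). The call ended without any P5 array or without P5-EM replicate 2 (adjusted p from 0.127 to 0.154), while the fold change stayed between 0.53 and 0.60. Sec11 cuts the signal peptide from proteins as they enter the ER, and the other subunits of the same enzyme were looked at after its value was seen. SPC1 had a fold change of 0.30 (adjusted p = 0.146), SPC2 one of -0.08 (adjusted p = 0.764) and SPC3 one of -0.13 (adjusted p = 0.477), so that none passed. SEC65, for a subunit of the signal recognition particle that brings ribosomes to the ER, had levels of 8.06, 7.64 and 7.67 in P5 and 7.29, 7.72 and 7.82 in P5-EM (-0.18, adjusted p = 0.523). SEC59, for the dolichol kinase that supplies the lipid carrier of protein glycosylation, had a fold change of 0.13 (adjusted p = 0.629). Both overlapped between the strains.

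Of the 14 measured genes that were listed as partners of these proteins (the small translocon subunits, the second channel gene SSH1, the signal recognition particle with its receptor, and the signal peptidase subunits), 0 were called with all arrays, 2 of them having an unadjusted p under 0.05. The methods' t-test called 0. By limma that is 0% of the list beside 13.9% of all probe sets. Without P5-EM replicate 1, 1 was lower, or 7.14% beside 26.6%.

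In the COPII coat, 1 of 9 genes passed. SAR1 encodes the small GTPase that starts the coat, SEC12 its exchange factor in the ER membrane, SEC23 and SEC24 the inner layer that holds cargo, SEC13 and SEC31 the outer cage, and SEC16 the scaffold at ER exit sites. SFB2 and SFB3 are homologues of SEC24. The gene that passed, SFB2, was lower in P5-EM. The median log2 fold change of the 9 was -0.03, and -0.13 without P5-EM replicate 1. SAR1 had levels of 10.85, 10.64 and 10.65 in P5 and 10.86, 10.86 and 10.72 in P5-EM, a fold change of 0.10 with a 95% interval from -0.18 to 0.38. The fold change was -0.06 for SEC12, -0.21 for SEC16 and 0.22 for SEC23 (lowest adjusted p = 0.250, highest 0.832).

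Within the SEC24 family the lower gene was SFB2. It had levels of 8.99, 8.80 and 8.69 in P5 and fell to 8.20, 8.40 and 8.33 in P5-EM (log2 fold change -0.52, SE 0.13, adjusted p = 0.0429, limma). Its P5-EM arrays all lay below its P5 arrays. Without P5-EM replicate 1 it was lower by -0.46 (adjusted p = 0.0282), and the call ended without any P5 array, P5-EM replicate 2 or P5-EM replicate 3 (adjusted p from 0.0601 to 0.146), with the fold change between -0.58 and -0.44. SEC24, the essential member, had levels of 9.67, 9.39 and 9.43 in P5 and 9.81, 9.43 and 9.36 in P5-EM, and SFB3, which helps to load the plasma membrane ATPase Pma1, had 8.42, 8.30 and 8.18 and then 8.47, 8.14 and 8.21. Their fold changes were 0.03 and -0.03, and both overlapped between the strains. The fold change of SFB2 differed from that of SEC24 by -0.55 and from that of SFB3 by -0.49, each with an exact two-sided permutation p of 0.1, the smallest that 3 arrays against 3 allow, and so the design could not place either difference past 0.05. Over the 7 such pairs of genes compared, all chosen after the values were seen, the adjusted p of both was 0.117.

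SEC31 and SEC13, whose proteins build the outer cage together, had fold changes of opposite sign. SEC31 had levels of 9.76, 9.87 and 9.70 in P5 and 10.41, 10.04 and 9.97 in P5-EM (log2 fold change 0.36, SE 0.15, adjusted p = 0.137, limma). The strains did not overlap. SEC13, which also serves in the nuclear pore and in a complex on the vacuole, had 10.19, 9.66 and 9.93 and then 8.80, 9.92 and 9.65 (-0.47, SE 0.30, adjusted p = 0.304). Its value on P5-EM replicate 1 stood far below the other arrays. Without that array the fold change of SEC31 was 0.23 and that of SEC13 -0.14. Of 23 listed genes of COPII cargo receptors and of tethering and fusion between ER and Golgi, 0 were called by limma or the methods' t-test and 5 had an unadjusted p under 0.05 by limma. That is 0% of the list beside 13.9% of all probe sets called by limma. Without P5-EM replicate 1, 1 was higher and 1 lower, or 8.7% beside 26.6%.

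The COPI coat, or coatomer, is made of 7 subunits, and in P5-EM 6 of the 7 genes had a negative fold change, none of which passed. Over all probe sets, 2948 of 5498 were negative. Without P5-EM replicate 1 the counts were 5 of the 7 genes and 2687 of the 5498 probe sets. COP1 encodes the alpha subunit, SEC26 the beta, SEC27 the beta prime, SEC21 the gamma, RET2 the delta, SEC28 the epsilon and RET3 the zeta subunit. Their median log2 fold change was -0.27, and it was -0.13 without P5-EM replicate 1. By limma 1 gene had an unadjusted p under 0.05, and the methods' t-test called 0. SEC26 had levels of 10.54, 10.31 and 10.24 in P5 and 9.84, 9.95 and 10.13 in P5-EM (-0.39, SE 0.14, adjusted p = 0.102). SEC28 had 8.97, 8.63 and 8.66 and then 8.13, 8.53 and 8.49 (-0.37, SE 0.16, adjusted p = 0.157). For these 2 genes the strains did not overlap, and without P5-EM replicate 1 their fold changes were -0.32 and -0.24.

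SEC21 had the most negative fold change of the coatomer genes, -0.41 (SE 0.25, adjusted p = 0.289, limma), and owed it to 1 array: its levels were 9.65, 9.32 and 9.28 in P5 and 8.45, 9.30 and 9.28 in P5-EM. P5-EM replicates 2 and 3 lay among the P5 values. RET3 was the 1 gene with a positive fold change, at 9.66, 9.28 and 9.41 in P5 and 9.75, 9.77 and 9.49 in P5-EM (0.22, adjusted p = 0.331). RET2 had a fold change of -0.27 (adjusted p = 0.204) and -0.36 without P5-EM replicate 1 (adjusted p = 0.0576). COP1 and SEC27 were near 0 at -0.03 and -0.04, with 95% intervals from -0.38 to 0.33 and from -0.32 to 0.23. All 7 genes were higher in P5 replicate 1 than in the other P5 arrays, by a median of 0.27. Of 20 listed genes of COPI partners and of retrieval to the ER, such as the Arf GTPases, their exchange and activating factors, the HDEL receptor gene ERD2, and the COG and Dsl1 tethers, 1 was higher, 0 lower and 19 did not pass. The higher gene, named after its value was seen, was COG8, for a subunit of the COG tether at the Golgi (0.49, adjusted p = 0.0422, limma). That is 5.0% of the list beside 13.9% of all probe sets, and the methods' t-test called 0. Leaving out P5-EM replicate 1 gave 3 calls among the 20, of which 2 were higher and 1 lower, where 26.6% of all probe sets were called.

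The exocyst had the lowest median of the 7 groups, and that median moved most of its way to 0 without a single array. Its 8 subunits form the tether between secretory vesicles and the plasma membrane, with Sec3 and Exo70 binding the membrane lipid PI(4,5)P2 and Sec15 binding the vesicle GTPase Sec4. The median log2 fold change was -0.39 on all arrays and -0.09 without P5-EM replicate 1. Against the P5 mean, the median exocyst gene stood at -0.84 on P5-EM replicate 1, at -0.14 on replicate 2 and at -0.05 on replicate 3. With all arrays 0 of the 8 genes passed (1 at an unadjusted p under 0.05 by limma and 2 by the methods' t-test, which called 0 after adjustment). P5-EM replicate 1 was the lowest of all 6 arrays for 7 of the 8 genes, against 39.1% of all probe sets.

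EXO70 differed the most between the P5-EM arrays of all members. It had levels of 6.01, 5.70 and 5.65 in P5 and of 3.80, 5.68 and 5.70 in P5-EM. P5-EM replicates 2 and 3 lay among the P5 arrays, while replicate 1 differed from their mean by -1.89. The SD over 3 arrays was 0.20 for P5 but 1.09 for P5-EM. The fold change of -0.72 (SE 0.50, adjusted p = 0.337, limma) became -0.09 without that array. SEC3 had 8.41, 8.37 and 8.62 in P5 and 7.11, 8.06 and 8.26 in P5-EM (-0.66, adjusted p = 0.166, and -0.31 without replicate 1). SEC8 had 5.79, 5.46 and 5.49 and then 4.36, 5.31 and 5.43 (-0.55, adjusted p = 0.220, and -0.21). For SEC3 and SEC8, unlike EXO70, the P5-EM arrays all lay below the P5 arrays.

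**Figure D2:**
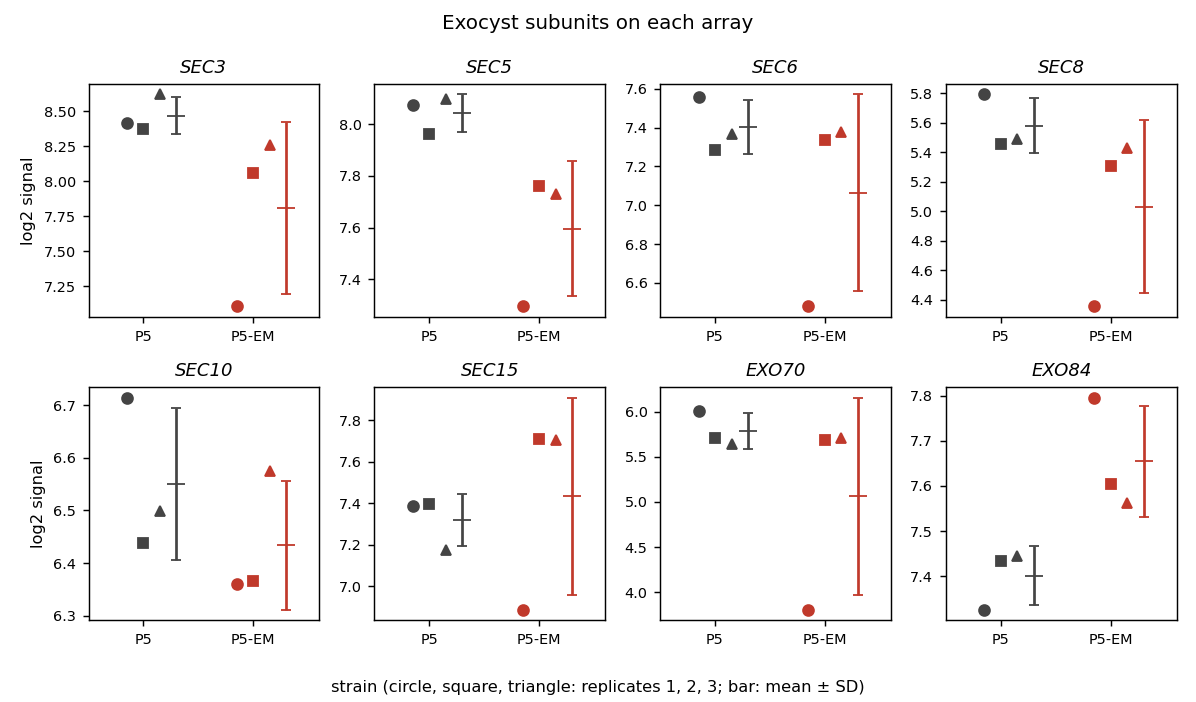
Log2 signal of the 8 exocyst subunit genes on each array (y axis, with a scale of its own in each panel), for P5 and P5-EM (x axis); symbols are replicates 1 to 3 and bars the mean ± SD of 3 arrays. P5-EM replicate 1, the red circle, is the lowest point for 7 genes, at 3.80 for EXO70, and the highest for EXO84.

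The remaining exocyst genes did not share 1 direction. SEC5 had levels of 8.07, 7.96 and 8.10 in P5 and 7.30, 7.76 and 7.73 in P5-EM, with no overlap (-0.45, SE 0.15, adjusted p = 0.0978, limma, and -0.30, adjusted p = 0.0735, without P5-EM replicate 1). SEC6 had a fold change of -0.34 and SEC10 one of -0.12 (adjusted p = 0.372 and 0.546). SEC15 had 7.39, 7.40 and 7.18 in P5 and 6.89, 7.71 and 7.71 in P5-EM. Its P5-EM replicate 1 was below the P5 arrays and replicates 2 and 3 were above them. On all arrays SEC15 had a fold change of 0.11 (adjusted p = 0.753), and without replicate 1 it was higher in P5-EM by 0.39 (adjusted p = 0.0423). EXO84 had 7.33, 7.43 and 7.45 and then 7.80, 7.60 and 7.56, with all P5-EM arrays above all P5 arrays (0.25, adjusted p = 0.174).

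Next to the exocyst act the proteins that guide a vesicle to the membrane and fuse it. None of the 4 genes passed by limma or by the methods' t-test, and 0 had an unadjusted p under 0.05 by either. SEC4 encodes the GTPase on the vesicle and had levels of 9.55, 9.43 and 9.26 in P5 and 9.53, 9.77 and 9.68 in P5-EM (log2 fold change 0.25, SE 0.13, adjusted p = 0.220, limma). SEC2 encodes the exchange factor that switches Sec4 on, and it is the member whose coding sequence is changed in P5-EM. Its levels were 6.95, 6.91 and 6.67 in P5 and 6.49, 6.76 and 6.71 in P5-EM. The strains overlapped, and the fold change was -0.19 (SE 0.13, 95% interval from -0.51 to 0.13, adjusted p = 0.343), or -0.11 without P5-EM replicate 1. Whether the changed base lies under a probe of the array was not tested.

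SEC9, for the plasma membrane SNARE that pairs with Sso1 and Sso2, had the most negative fold change of all members and did not pass. It had levels of 8.01, 7.93 and 8.06 in P5 and 6.35, 7.56 and 7.85 in P5-EM (log2 fold change -0.75, SE 0.37, adjusted p = 0.197, limma). The P5-EM arrays all lay below the P5 arrays but were spread over an SD of 0.79, and without replicate 1 the fold change was -0.30 (adjusted p = 0.114). SEC1, whose protein binds the assembled SNAREs, had P5-EM arrays that differed by an SD of 0.0088, and its fold change was -0.03 with a 95% interval from -0.28 to 0.22. Of 14 measured genes listed as partners in exocytosis, 0 were higher, 1 was lower and 13 did not pass. The lower gene was SSO1, one of the 2 genes for the SNARE partner of Sec9, at -0.64 (adjusted p = 0.0213), and it was named after its value was seen. That is 7.14% of the list beside 13.9% of all probe sets. In the fit without P5-EM replicate 1, 1 was higher and 2 were lower, or 21.4% beside 26.6%.

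**Figure D3:**
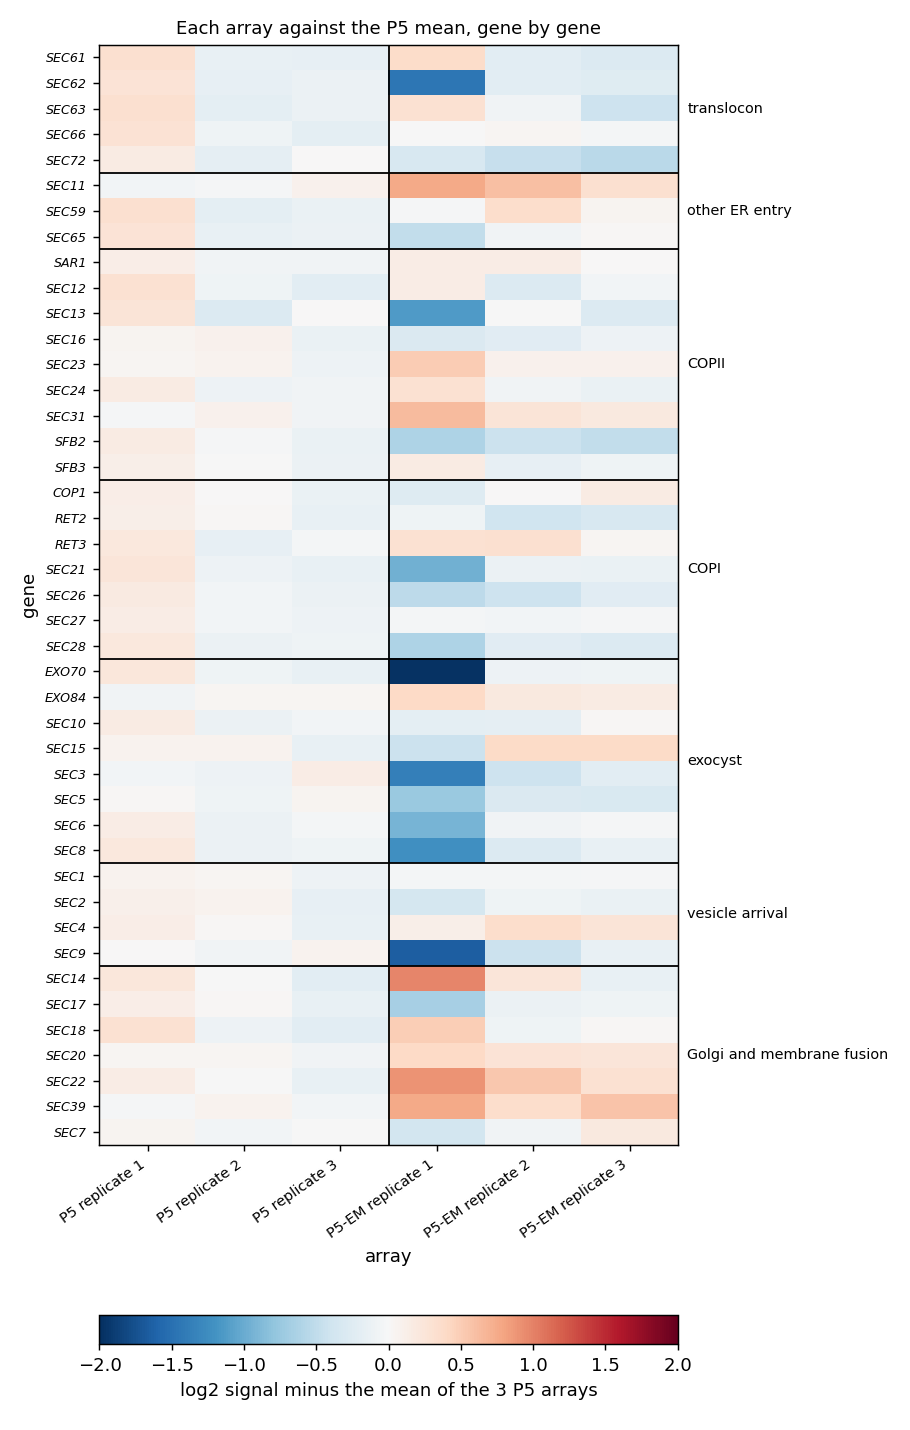
Log2 signal of each of the 43 genes on each array, minus the mean of that gene over the 3 P5 arrays (colour, from -2 to 2), with arrays as columns and genes as rows in their 7 groups. P5-EM replicate 1 holds the strongest colours, blue for EXO70 at -1.98 and SEC9 at -1.65, and red for SEC14 at 0.98.

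The last 7 genes act at the Golgi and in membrane fusion. SEC39 was the 1 gene of this group that passed. It had levels of 6.30, 6.39 and 6.26 in P5 and rose to 7.07, 6.67 and 6.89 in P5-EM (log2 fold change 0.56, SE 0.14, adjusted p = 0.0429, limma). The strains did not overlap, and without P5-EM replicate 1 the fold change was 0.46 (adjusted p = 0.0251). As for SFB2, the call ended without any P5 array, P5-EM replicate 2 or P5-EM replicate 3 (adjusted p from 0.0640 to 0.168), with the fold change between 0.53 and 0.66. Sec39 forms the Dsl1 tether with the products of DSL1 and TIP20, neither of which passed: DSL1 had a fold change of -0.21 (adjusted p = 0.323) and TIP20 one of -0.77 (adjusted p = 0.280). The value of TIP20 was low on P5-EM replicate 1, at 2.72 against 4.41 and 4.53 on the other P5-EM arrays and a P5 mean of 4.65. On P5-EM replicate 1 it was thus close to the background percentile, which was 2.60 there.

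SEC22 and SEC20 encode SNAREs of traffic between ER and Golgi, and Sec20 is the SNARE at the ER with which the Dsl1 tether works. SEC22 had levels of 8.04, 7.87 and 7.73 in P5 and 8.77, 8.42 and 8.19 in P5-EM, the most positive fold change of the members at 0.58 (SE 0.18, adjusted p = 0.0728, limma). It did not pass, nor did it without P5-EM replicate 1, at 0.42 (adjusted p = 0.0504), or without any P5 array or P5-EM replicate 2 (adjusted p from 0.129 to 0.235). Of the fits with 1 array left out, it passed in that without P5-EM replicate 3, at 0.71 (adjusted p = 0.0379). SEC20 had 8.19, 8.18 and 8.08 in P5 and 8.54, 8.42 and 8.40 in P5-EM (0.30, SE 0.11, adjusted p = 0.103). For both genes every P5-EM array was above every P5 array, as for SEC39.

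The other genes of this group overlapped between the strains. SEC14, for the transfer protein that keeps phosphatidylinositol and phosphatidylcholine in balance at the Golgi, had levels of 7.92, 7.69 and 7.49 in P5 and 8.68, 7.94 and 7.55 in P5-EM. Its fold change was 0.36 (SE 0.29, adjusted p = 0.407, limma) and 0.05 without P5-EM replicate 1. SEC17 and SEC18 encode the factors that take used SNARE complexes apart. SEC17 had 9.31, 9.20 and 9.04 in P5 and 8.52, 9.07 and 9.10 in P5-EM (-0.29, adjusted p = 0.307), and SEC18 had a fold change of 0.14 (adjusted p = 0.655). SEC7, for the exchange factor of Arf at the Golgi, had one of -0.09 (adjusted p = 0.722). Over the 7 genes the median was 0.30 on all arrays and 0.06 without P5-EM replicate 1.

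**Figure D4:**
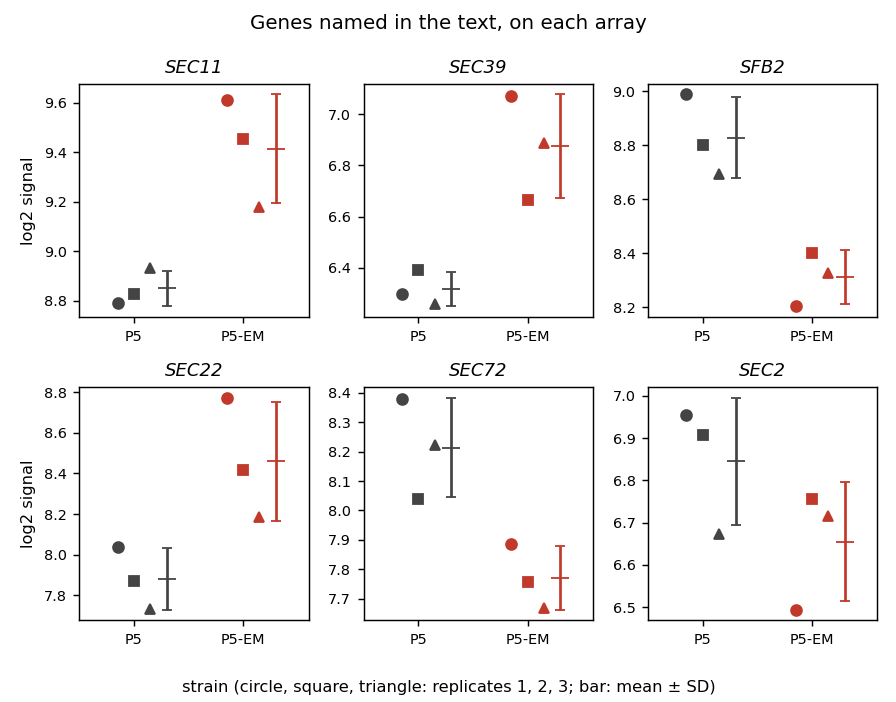
Log2 signal on each array (y axis, with a scale of its own in each panel) of the 3 genes that passed, SEC11, SEC39 and SFB2, and of SEC22, SEC72 and SEC2, which did not, for P5 and P5-EM (x axis); symbols are replicates 1 to 3 and bars the mean ± SD of 3 arrays. For the first 5 genes the arrays of the strains do not overlap, and for SEC2 they do.

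Single arrays stood apart for some of the members. The median SD over the P5-EM arrays was 0.22 for the members and 0.22 over all probe sets. P5-EM replicate 1 lay at least 2-fold below the mean of the other P5-EM arrays for 5 members (SEC62, SEC3, SEC8, EXO70 and SEC9), or 11.6%, against 9.19% of all probe sets, and at least 2-fold above it for 0 members and 1.87% of all probe sets. Of the 5 genes, 3 were subunits of the exocyst. The difference between P5-EM replicate 1 and the other P5-EM arrays had a Spearman correlation of 0.24 with the level in P5 over the 43 members and of 0.14 over all probe sets. These are descriptions across genes that share arrays. They rank genes by hybridisation signal, as do the bins that follow, and not by amount of RNA. All probe sets were put into equal bins by their P5 level. The median of this difference was -0.24 in the lowest bin, which holds 6 of the members. In the higher bins it ran from -0.06 to -0.02. The part of this array in the exocyst values is the measured one above: without it the median was -0.09.

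A smaller shift ran through P5. Replicate 1 was the highest of the 3 P5 arrays for 33 of the 43 members, or 76.7%, against 44.1% of all probe sets, and it stood above the mean of the others by a median of 0.23, against 0.03 over all probe sets. It was highest for all 5 translocon genes (by a median of 0.42), all 7 COPI genes, 6 of 9 COPII genes and 4 of 8 exocyst genes. The same held for 6 of 7 genes of the Golgi and membrane fusion group. The same array was highest for 11 of 13 measured targets of the unfolded protein response, the pathway by which the ER raises its folding and translocation genes, by a median of 0.35. It was also highest for 8 of 14 ER translocation partners, 16 of 23 COPII partners, 14 of 20 COPI partners and 10 of 14 exocytosis partners. Its part in the members' fold changes was not tested beyond leaving the array out. That moved the translocon median from -0.07 to 0.10 and the COPII median from -0.03 to 0.09. The COPI median stayed negative, at -0.27 with the array and -0.21 without it, as did that of the exocyst, at -0.39 and -0.35. Of those 13 targets, 2 were lower in P5-EM, 0 higher and 11 did not pass, which is 15.4% beside 13.9% of all probe sets. The count was 1 without P5 replicate 1, 4 without P5-EM replicate 1 (30.8% beside 26.6%) and 0 by the methods' t-test. The lower genes, named after their values were seen, were LHS1, for an ER chaperone that works with Kar2 (-1.15, adjusted p = 0.0201, limma), and ERO1, for the enzyme that supplies disulfide bonds (-1.05, adjusted p = 0.0264), while KAR2 itself had -0.46 (adjusted p = 0.143). The 13 targets did not share 1 direction: 9 had a negative and 4 a positive fold change, up to 0.48. Their median was -0.14.

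**Figure D5:**
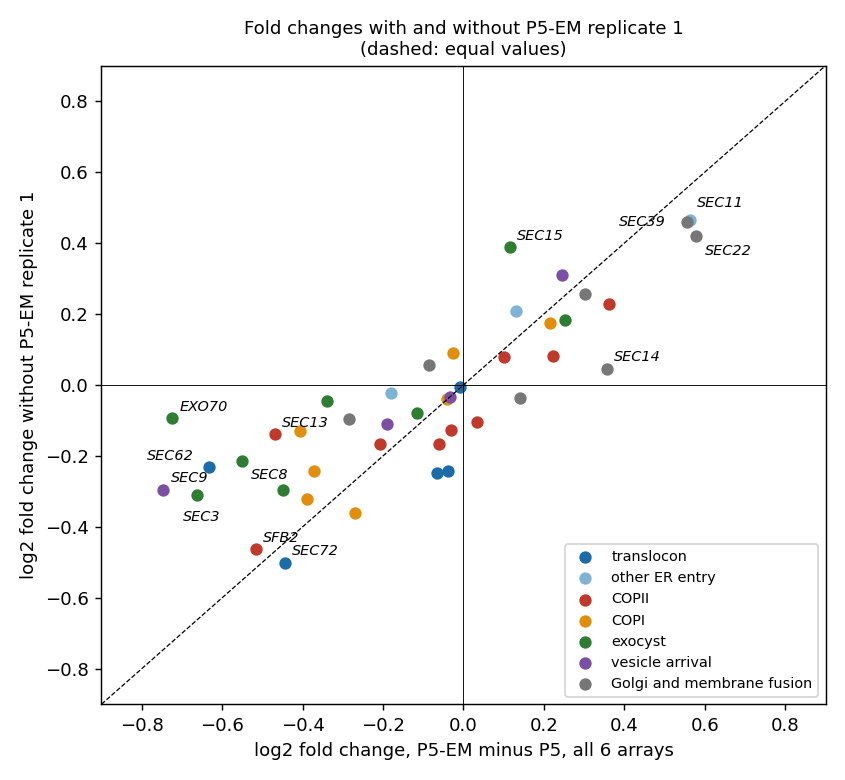
Log2 fold change of each of the 43 genes on all 6 arrays (x axis) and without P5-EM replicate 1 (y axis), coloured by group, with a dashed line at equal values. EXO70, SEC9, SEC3, SEC62 and SEC8 lie above the line, closer to 0 without that array, while SFB2, SEC11 and SEC39 stay near it.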

How the data were processed

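RNA from 3 cultures each of P5 and P5-EM, at 12 °C, was amplified from 25 ng over 17 cycles and hybridised to Affymetrix Yeast Genome 2.0 arrays. The deposited log2 values were made by the authors with GCOS and with RMA in Partek (background correction, normalization between arrays, probe summary), without pooling replicates. Precision is limited by the 3 arrays per strain. The 5498 probe sets that the annotation gives to 1 S. cerevisiae gene were tested with limma 3.58.1 in R 4.3.3, P5-EM minus P5, with no covariate, and called where the Benjamini-Hochberg adjusted p did not exceed 0.05. The fit was checked on simulated data with independent noise of equal spread in both strains. That setting holds no outlying array such as P5-EM replicate 1. The methods' t-test was an alternative, as were other normalizations, filters, probe sets in the fit, array weights, leaving out each array and a block for the replicate number. Background was the 95th percentile of 1747 probe sets taken as S. pombe. The members, the 7 groups, the 5 partner lists and the tests were chosen with earlier results of these data known. Each member is described, with values per array for called members, the extremes of each group and SEC2, and further genes named after their values were seen. Partner genes that the annotation did not match were not used here. SEC39 was added to its group after the annotation was read.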

Additional observations from a re-analysis of the deposited data

How the results depend on the processing

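Of 688 member values recomputed under an alternative, 640 stayed on the same side of the threshold, 28 calls were lost, 20 were gained and 0 reversed. Among values that passed neither in the main fit nor in the alternative concerned, 31 differed in sign. The 3 calls among the members became 0 by the methods' t-test, with all probe sets but controls in the fit, and at 2-fold, and 20 with array weights (46.5% of members, 58.6% of all probe sets, from an estimate that stopped short of its tolerance). They were between 0 and 5 with 1 array left out: 0 without any P5 array (5 or 6 at an unadjusted p under 0.05) or P5-EM replicate 2 (6), and 5 without P5-EM replicate 1. Over all probe sets the 763 calls became 163 by the methods' t-test, 3222 with array weights and 216 at 2-fold, and lay between 0 and 1462 with 1 array left out. With replicate number as a block, 208 probe sets and 0 members were called (7 members at an unadjusted p under 0.05). Same-numbered arrays did not deviate together (r = -0.03, -0.28 and -0.02), and differently numbered ones had r from -0.11 to 0.24. With 3 arrays per strain these values cannot decide whether the numbers mark pairs. The COPI median lay between -0.34 and -0.13 with 1 array left out, the lesser being without P5-EM replicate 1, that of the exocyst between -0.51 and -0.09, of the translocon between -0.24 and 0.10 and of COPII between -0.13 and 0.09. The cause of these changes was not tested. No member has a second probe set.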
